A study of Homo sapiens with 2 samples.

Results

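The chromatin modifier and remodeller genes are those that write, read or erase marks on histones and DNA or that move nucleosomes. They were chosen by gene symbol alone, as every gene whose annotated symbol starts with KDM, KMT, KAT and a digit, SETD, BRD and a digit, CBX, CHD and a digit, SMARC, ARID, DNMT, TET and a digit, or SIRT, together with EZH1, EZH2, EED, SUZ12, HDAC4, HDAC5 and HDAC7 to HDAC11. Antisense transcripts were left out. This gave 93 of the 14884 named genes of the array, of which 90 are protein coding, 2 are transcribed pseudogenes (BRD7P3 and CBX3P2) and 1 is a divergent non-coding transcript (KDM7A-DT). No gene with a SMARC symbol was named in the annotation, and neither were EED, KMT2A or TET3, so these are not analysed here.

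The cells were SNK6, a line derived from a human NK/T-cell lymphoma that carries Epstein-Barr virus, kept in medium with interleukin-2. One group received romidepsin and sildenafil for 72 h and the other romidepsin without sildenafil for 72 h. Each group was 1 sample on 1 array. Romidepsin inhibits class I histone deacetylases, and sildenafil inhibits a phosphodiesterase that degrades cyclic GMP. Both cultures carried the deacetylase inhibitor, so the comparison asks what sildenafil adds to it, and the effect of romidepsin itself was not measured. SNK6 is a single line, the labels give no doses, and cultures without romidepsin were not analysed here. Of the 10 listed NK markers 7 were named, and all 7 passed the signal filter described below on at least 1 array. GNLY passed it narrowly, on the romidepsin plus sildenafil array alone, and TYROBP was also dim (4.33 with and 4.23 without sildenafil). Differences of the 7 ran from -0.27 (NKG7, 8.23 with and 8.50 without) to 0.47 (TBX21, 5.09 with and 4.62 without). PRF1, the pore-forming protein perforin, had a log2 signal of 8.81 with and 8.83 without. Of 22 markers listed for T, B, myeloid, epithelial and fibroblast cells, 14 were named and 10 passed the filter, among them CD2, which NK cells share with T cells, at 8.10 on both arrays and the keratin genes KRT18 (7.38 with and 7.04 without), KRT8 (5.13 with and 5.43 without) and KRT19 (3.86 with and 4.13 without, past the filter on the romidepsin array alone). Also past the filter were the B-cell genes PAX5 (5.05 with and 5.23 without) and BLK (5.14 with and 5.19 without). So were the T-cell genes CD5 (4.37 with and 4.13 without) and CD6 (4.03 with and 4.28 without). The myeloid genes past it were CSF1R (4.28 with and 4.01 without) and VSIG4 (3.88 with and 4.30 without, on the romidepsin array alone). The other 4, CD14, LYZ, EPCAM and DCN, lay below the filter.

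In background terms, acetyl groups on histone tails loosen chromatin and are bound by bromodomain proteins, while deacetylases and sirtuins remove them. Methyl groups on histones mark active or silent genes according to the lysine that carries them, and are placed by KMT and SETD enzymes and Polycomb repressive complex 2, removed by KDM enzymes, and bound by chromobox proteins. CHD and SWI/SNF complexes use ATP to slide or evict nucleosomes, and DNMT and TET enzymes add and oxidise methyl groups on cytosine. Mutations and misexpression of several of these genes, among them KMT2D, ARID1A, TET2 and EZH2, are known in NK and T-cell lymphomas.

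To show what kind of start sites these genes have, the 250 bases upstream of the annotated start are given for 5 of them, chosen after their values were seen. Among members past the signal filter, KDM4B was the only one past the smaller of the thresholds used below, SETD6 and KDM5B had the largest positive differences, CBX3 had the largest difference among members of high signal, and KDM7A starts close to KDM7A-DT. Sequences are from RefSeq (GRCh38.p14), written 5′ to 3′ on the strand of the gene, and capitals mark the GC box, GGGCGG on either strand. The stretch upstream of KDM4B lies at chr19:4968863-4969112 (+), that of KDM7A at chr7:140176984-140177233 (-), CBX3 at chr7:26201193-26201442 (+), SETD6 at chr16:58515267-58515516 (+) and KDM5B at chr1:202808422-202808671 (-).
KDM4B: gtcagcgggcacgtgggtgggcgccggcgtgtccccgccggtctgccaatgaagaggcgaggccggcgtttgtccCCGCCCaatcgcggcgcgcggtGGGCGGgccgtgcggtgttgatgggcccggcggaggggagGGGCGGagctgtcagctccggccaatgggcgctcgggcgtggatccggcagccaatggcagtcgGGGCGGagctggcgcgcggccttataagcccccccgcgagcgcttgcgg
KDM7A: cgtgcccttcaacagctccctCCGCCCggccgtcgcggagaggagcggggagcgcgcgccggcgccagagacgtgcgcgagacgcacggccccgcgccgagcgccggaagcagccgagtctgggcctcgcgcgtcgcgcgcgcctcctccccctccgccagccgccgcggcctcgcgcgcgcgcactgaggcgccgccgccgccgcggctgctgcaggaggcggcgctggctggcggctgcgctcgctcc
CBX3: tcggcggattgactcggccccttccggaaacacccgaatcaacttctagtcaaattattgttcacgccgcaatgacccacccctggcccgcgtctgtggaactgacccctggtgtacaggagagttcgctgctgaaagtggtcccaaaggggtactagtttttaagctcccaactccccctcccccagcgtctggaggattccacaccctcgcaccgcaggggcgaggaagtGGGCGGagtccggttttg
SETD6: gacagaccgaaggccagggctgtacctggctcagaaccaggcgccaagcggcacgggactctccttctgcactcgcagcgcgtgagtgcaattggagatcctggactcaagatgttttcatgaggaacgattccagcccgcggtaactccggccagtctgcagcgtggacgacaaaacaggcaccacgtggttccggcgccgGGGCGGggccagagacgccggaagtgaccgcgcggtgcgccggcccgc
KDM5B: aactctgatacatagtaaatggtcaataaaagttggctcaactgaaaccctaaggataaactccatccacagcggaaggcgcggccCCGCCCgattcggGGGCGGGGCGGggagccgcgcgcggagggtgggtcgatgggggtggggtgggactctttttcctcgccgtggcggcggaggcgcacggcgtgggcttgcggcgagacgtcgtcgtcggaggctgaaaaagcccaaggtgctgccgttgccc
The KDM4B stretch held 4 GC boxes and 36 CpG dinucleotides, KDM7A 1 and 50, CBX3 1 and 16, SETD6 1 and 26, and KDM5B 3 and 27, where 2 of the KDM5B copies share bases.

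Of the 84 members past the filter, 52 had a single promoter window in the RefSeq table, 23 had several and 9 had none. In the 52 single windows the median was 24 CpG dinucleotides and 68.8% G or C, against 20 and 64.8% in the 5669 single windows of all named genes past the filter. A GC box stood in 34 of the 52 (65.4%), against 66.4% of all genes past the filter and 40.9% of all 22114 single windows. The CCAAT box (CCAAT, either strand) stood in 28.8% of the members' windows, against 36.0% of those of all genes past the filter. The ETS motif (CCGGAAG, either strand) stood in 19.2% and 16.4%. The TATA box (TATAAA, either strand) stood in 0 of 52, against 5.87%, and the cAMP response element TGACGTCA in 0 of 52, against 3.03%. The median log2 difference between the arrays was 0.01 for members with a GC box and -0.04 for those without, against -0.01 in each case for all genes. The promoter windows were not matched to the transcripts that the probe sets measure.

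The arrays differed little in these genes. All signals are on the log2 scale, and each difference is the signal with romidepsin and sildenafil minus that with romidepsin alone. A gene entered the counts if at least 1 of its array signals was 3.91 (the median of the whole table) or more, which held for 84 of 93 members and 10081 of all named genes. The median of the 84 was 0.00, with 43 members higher with sildenafil, 39 lower and 2 equal, against a median of -0.01 over all genes. Of all genes past the filter, 47.2% were higher and 52.4% lower. The split of the members depended on the scaling between the arrays. It was 31 higher and 53 lower under median centring and 53 higher and 31 lower under quantile normalization. No member whose sign turned had a difference above 0.0501 in size. However, every class median given below, except that of the bromodomain genes, changed sign under at least 1 of 3 other scalings. At a log2 difference of 0.322 or more in size, the smaller threshold, 0 members were higher with sildenafil and 1 was lower, where 6.69% of all genes were higher and 6.04% lower. These counts used the brightest probe set of each gene, and a dimmer probe set of CBX6 was higher by 0.37. At 1.5-fold, 0 of 84 members were apart, against 1.99% of all genes. In bulk RNA, less transcript per cell and fewer cells with it cannot be told apart. With 1 array per group there is no replicate error, no test was possible, and a fold of this size does not separate an effect of sildenafil from variation between cultures or arrays.

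**Figure D1:**
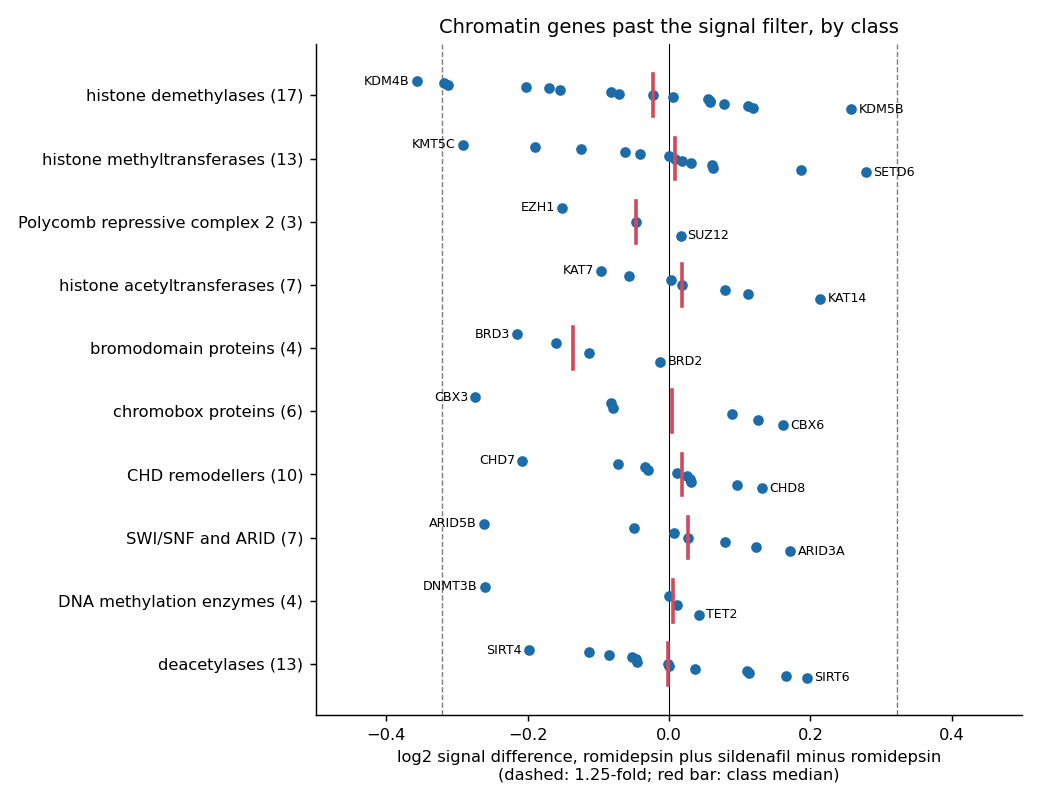
Log2 signal difference (romidepsin plus sildenafil minus romidepsin) of the 84 chromatin genes past the filter, by class, with the number of genes in brackets. Each point is 1 gene, red bars are class medians, dashed lines mark the smaller threshold of 0.322, and the genes at either end of a class are named. KDM4B alone lies beyond a dashed line.

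Members of low signal, where arrays differ most, were few. All genes past the filter were split by mean signal, at 4.99 and 6.59, into low, middle and high ranges of equal gene number, and 8 members fell in the low, 34 in the middle and 42 in the high range. In the high range 0 of 42 members reached the smaller threshold in either direction, against 2.89% of all genes there, and in the middle range 0 of 34, against 11.7%. In the low range it was 1 of 8, against 23.6%. The SD of the members' differences was 0.10 in the high, 0.16 in the middle and 0.20 in the low range, against 0.14, 0.21 and 0.29 for all genes. In the middle range 41.2% of members and 41.4% of all genes lay within 0.1 of zero, and in the high range 76.2% and 58.0%. These shares describe 2 arrays and were not tested.

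**Figure D2:**
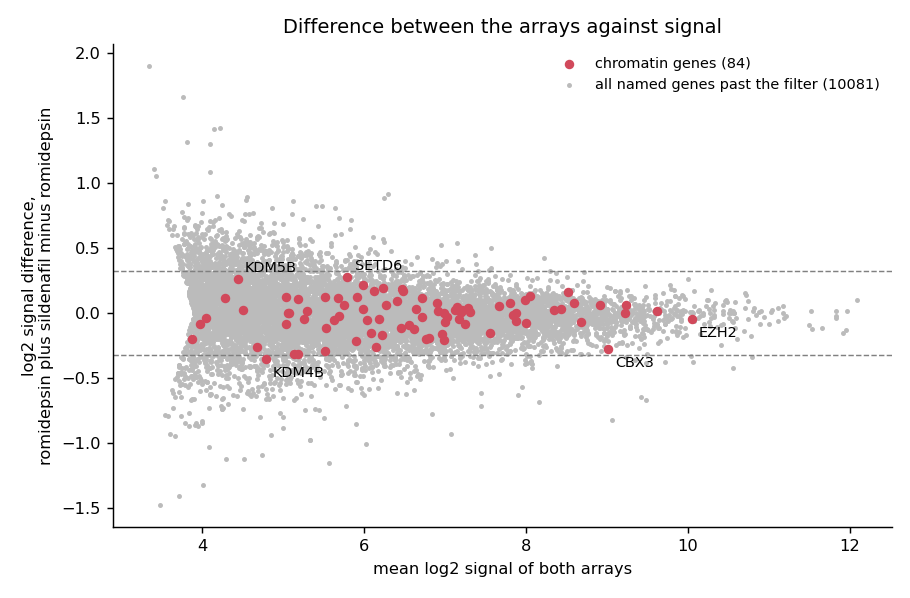
Log2 signal difference (romidepsin plus sildenafil minus romidepsin) against the mean log2 signal of both arrays, for the 84 chromatin genes (red) and all 10081 named genes past the filter (grey). Dashed lines mark the smaller threshold of 0.322, and the chromatin genes sit within the grey cloud, with KDM4B just beyond the lower line.

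**Figure D3:**
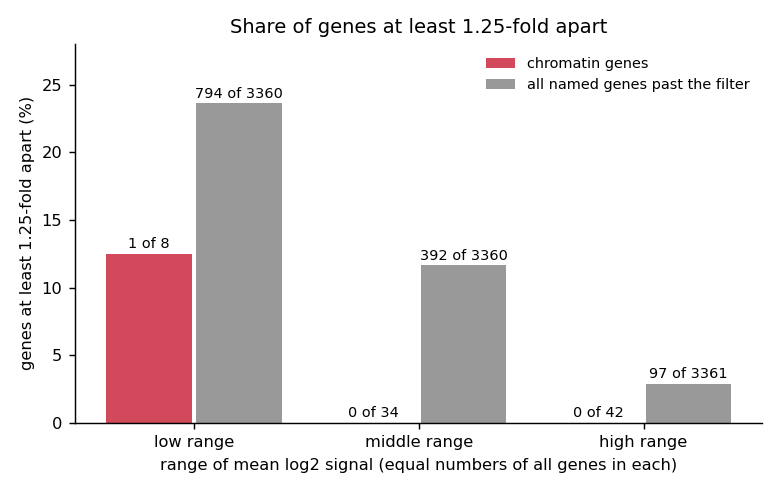
Percentage of genes that differ between the arrays by a log2 value of 0.322 or more in each range of mean log2 signal, for chromatin genes (red) and all named genes past the filter (grey), with counts above the bars. Chromatin genes reached 1 of 8 in the low range and 0 in the other ranges.

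The histone demethylase class held the widest spread, from -0.36 to 0.26, with 8 higher and 9 lower of 17 past the filter and a median of -0.02. By its symbol the class also counts KDM7A-DT, a non-coding transcript that encodes no demethylase and is among the 9 lower. KDM4B, which demethylates lysine 9 of histone H3, had a log2 signal of 4.61 with sildenafil and 4.97 without, 1.28-fold lower. Of the genes in its signal range, 19.2% differed by more than KDM4B. Its relative KDM4A had 6.67 with sildenafil and 6.87 without (-0.20), and KDM4C had 5.78 with and 5.73 without (0.06). The signs within the family differed, and KDM4D and KDM4E lay below the filter on both arrays. KDM8, a JmjC-domain dioxygenase, had 5.03 with sildenafil and 5.34 without (-0.31).

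KDM5B, which removes methyl groups from lysine 4 of histone H3, had the largest positive difference of the demethylases, with a signal of 4.57 with sildenafil and 4.31 without (0.26). In its low signal range, 34.1% of genes differed by more than KDM5B. The other KDM5 genes past the filter were near zero, KDM5A at 0.01 and KDM5C at -0.08. The lysine-specific demethylase KDM1A (LSD1), an FAD-dependent partner of deacetylase complexes, had 8.94 with sildenafil and 8.89 without (0.06), and KDM1B differed by -0.07. KDM6A and KDM6B, which erase the Polycomb mark on lysine 27 of histone H3, differed by -0.02 (5.69 with and 5.71 without) and -0.15 (6.01 with and 6.17 without). KDM2A (7.85 with and 7.77 without, 0.08), KDM2B (0.12), KDM3A (0.11) and KDM3B (7.70 with and 7.64 without, 0.06) were all slightly higher with sildenafil. KDM5D is Y-linked, lay below the filter on both arrays, and no level is given.

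KDM7A and the divergent transcript KDM7A-DT start 278 bases apart on opposite strands, with the KDM7A stretch printed above between them. KDM7A had 6.13 with sildenafil and 6.30 without (-0.17), and KDM7A-DT had 4.98 with and 5.30 without (-0.319), so both were lower with sildenafil. Of genes in the same signal range, 37.5% differed by more than KDM7A and 12.0% by more than KDM7A-DT.

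Across the members, 21 had a gene starting on the opposite strand within 1000 bases upstream, and in 10 of these pairs both genes were named and past the filter. Of the 10 pairs, 6 had the same sign, 3 had opposite signs, and in 1 the member was equal on the arrays, while under other scalings between 5 and 9 had the same sign. The share of same-sign pairs over all genes is not given, so these counts describe only the pairs. In the pair of KDM7A and KDM7A-DT the neighbour is itself a member. The neighbour was lower with sildenafil in 8 of the 10, where 52.4% of all genes past the filter were lower, and in 7 of the 10 under quantile normalization. KIF9-AS1 and ANKRD24, described next, passed the filter on 1 array alone, the one where they were higher, and of the 8 neighbours past it on both arrays 7 were lower. The neighbours with the largest differences were KIF9-AS1, beside SETD2, at -0.85 (3.37 with and 4.21 without), and LOC100289230, beside CHD1, at -0.42 (4.12 with and 4.54 without), while SETD2 and CHD1 themselves were at 0.02 and -0.07. HNRNPA2B1, 697 bases from CBX3, differed by -0.05 (9.71 with and 9.76 without), against -0.27 for CBX3. ANKRD24, 126 bases from SIRT6, differed by 0.17 (4.06 with and 3.88 without), beside 0.19 for SIRT6. Differences were thus alike in some pairs and unlike in others, and no test was possible.

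**Figure D4:**
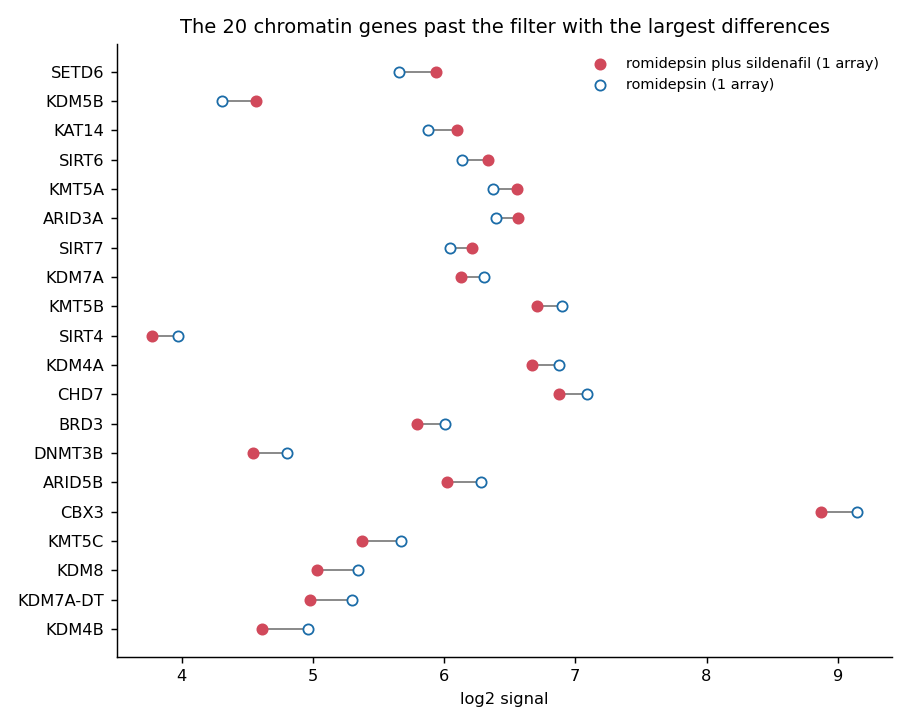
Log2 signal on each array of the 20 chromatin genes past the filter with the largest absolute differences, ordered by difference. Filled points are the romidepsin plus sildenafil array and open points the romidepsin array, 1 array each. The difference is positive in 7 of the genes and negative in 13, and no gap exceeds that of KDM4B.

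Among the 13 histone methyltransferase genes, all past the filter, 7 were higher with sildenafil, 5 lower and 1 equal, with a median of 0.01. The enzymes of lysine 20 of histone H4 had differences of both signs. KMT5A, which places the first methyl group, had 6.56 with sildenafil and 6.37 without (0.19). KMT5B and KMT5C, which add further methyl groups, had 6.71 with and 6.90 without (-0.19), and 5.38 with and 5.67 without (-0.29). These signs held under all 3 other scalings of the arrays, which moved the values by less than their size. In their signal ranges, 33.2% of genes differed by more than KMT5A, 15.0% by more than KMT5B and 14.6% by more than KMT5C.

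SETD6, a methyltransferase known to modify the NF-kappaB subunit RELA, had the largest positive difference of all members past the filter. It had 5.94 with sildenafil and 5.66 without, 1.21-fold higher, and 16.4% of genes in its range differed by more. Of the writers of lysine 4 methylation, KMT2C was at 9.26 with and 9.20 without (0.06), KMT2D at 7.31 with and 7.30 without, and KMT2B at 6.56 with and 6.68 without sildenafil (-0.12), and SETD1A differed by 0.03. SETD2, the enzyme that trimethylates lysine 36 of histone H3, was at 7.13 with and 7.11 without. SETD3, an actin histidine methyltransferase, was at 7.85 with and 7.91 without. SETD5 had 7.87 on both arrays, equal to every deposited decimal, as 42 of all genes past the filter were. SETD7 and SETD9 differed by 0.06 and -0.04.

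Polycomb repressive complex 2, which methylates lysine 27 of histone H3, was represented by 3 genes. EZH2, its main catalytic subunit in dividing cells, had 10.03 with sildenafil and 10.07 without (-0.05). SUZ12, a scaffold subunit, had 9.62 with and 9.61 without (0.02). EZH1, the alternative catalytic subunit, had 7.48 with and 7.63 without (-0.15), and 24.1% of genes in its range differed by more. The median of the 3 was -0.05, and under quantile normalization it was 0.06, with 2 higher and 1 lower.

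The acetyltransferase genes numbered 7, all past the filter, with 5 higher and 2 lower and a median of 0.02. Of all genes past the filter 47.2% were higher, and under median centring 3 of the 7 were higher and 4 lower. KAT14, a subunit of the ATAC acetyltransferase complex, had the largest difference, with 6.10 with sildenafil and 5.88 without (0.21). KAT5 (TIP60), which acetylates histone H4 and takes part in DNA damage signalling, had 5.73 with and 5.62 without (0.11). KAT2A (GCN5) had 7.21 with and 7.20 without, and KAT2B (PCAF) had 6.94 with and 6.86 without. KAT7 (HBO1) had 6.51 with and 6.60 without (-0.10). KAT6B and KAT8 (MOF) differed by 0.00 and -0.06, with KAT6B at 6.99 on each array.

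The bromodomain genes, here only those with a BRD symbol and not all readers of acetylated lysine, had a median of -0.14. They were lower with sildenafil in 4 of 4 past the filter, where 52.4% of all genes past the filter were lower. Under quantile normalization and under lowess centring 1 of the 4 was higher. BRD3 had 5.79 with sildenafil and 6.01 without (-0.22), and BRD7, a subunit of a SWI/SNF complex, had 6.88 with and 7.05 without (-0.16). BRD8, a subunit of the TIP60 complex, had 5.48 with and 5.59 without (-0.11). BRD2, which like BRD3 belongs to the BET family, had 7.83 with and 7.84 without. BRD3 and BRD7 lay where 26.7% and 21.4% of genes of the same range differed by more. The pseudogene BRD7P3 lay below the filter.

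The chromobox genes, which bind methylated histone H3, were split 3 and 3 among 6 past the filter. CBX3, which encodes the heterochromatin protein HP1 gamma, had 8.87 with sildenafil and 9.15 without, 1.21-fold lower (-0.27). In the high signal range 5.74% of genes differed by more, the smallest such share of any member. The other HP1 genes differed by -0.08 (CBX5, 7.96 with and 8.04 without) and 0.09 (CBX1, 6.45 with and 6.36 without). Of the Polycomb chromobox genes, CBX2 differed by 0.13 (5.10 with and 4.97 without), CBX7 by -0.08 and CBX6 by 0.16 (8.60 with and 8.44 without). CBX6 had a second probe set, which had 6.11 with and 5.74 without (0.37). This dimmer probe set lay past the smaller threshold but did not enter the counts. The mean difference of the CBX6 probe sets was 0.26, positive in each. The pseudogene CBX3P2 lay below the filter.

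The CHD remodellers, ATP-dependent enzymes that slide nucleosomes, had a median of 0.02, with 8 of 10 within 0.1 of zero, against 49 of all 84 members past the filter and 43.1% of all genes. All but CHD5 lay in the high signal range, where 76.2% of members and 58.0% of all genes were that close to zero. CHD7 had 6.88 with sildenafil and 7.09 without (-0.21), and CHD8, which binds beta-catenin, had 8.12 with and 7.99 without (0.13). CHD4, the ATPase of the NuRD deacetylase complex, had 8.45 with and 8.42 without (0.03). CHD1 had 8.64 with and 8.71 without (-0.07), and CHD1L, a remodeller recruited to DNA damage, had 8.04 with and 7.94 without (0.10). CHD2, CHD3, CHD5, CHD6 and CHD9 lay between -0.03 and 0.03.

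The ARID genes, with a DNA-binding domain shared by subunits of SWI/SNF and other complexes, had a median of 0.03 over 7 past the filter. ARID1A, the SWI/SNF subunit most often mutated in cancer, had 7.20 on both arrays (0.01), and its paralogue ARID1B had 5.98 with sildenafil and 5.85 without (0.12). ARID5B, a partner of the demethylase PHF2, had 6.02 with and 6.28 without (-0.26), and ARID5A, an RNA-binding protein that stabilises inflammatory transcripts, had 8.63 with and 8.56 without (0.08). ARID3A had 6.57 with and 6.39 without (0.17), and ARID4B, a subunit of a SIN3 deacetylase complex, had 8.36 with and 8.33 without. ARID3B differed by -0.05, and ARID3C lay below the filter.

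The enzymes of DNA methylation were nearly equal except DNMT3B. DNMT1, which copies methylation after replication, had 9.22 on each array. The de novo methyltransferases DNMT3A and DNMT3B had 5.30 with and 5.29 without (0.01), and 4.55 with and 4.81 without (-0.26). In its low signal range, 33.5% of genes differed by more than DNMT3B. TET2, which oxidises methylcytosine, had 7.17 with and 7.13 without (0.04). TET1 lay below the filter, at 3.42 with and 3.85 without (-0.43), with a second probe set at 1.72 with and 1.87 without. DNMT3L also lay below it.

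The 13 deacetylase genes past the filter had a median of 0.00, and none had a difference beyond 0.20 in size. SIRT6, a nuclear deacetylase of histone H3, had 6.33 with sildenafil and 6.14 without (0.19), and SIRT7, which acts in the nucleolus, had 6.21 with and 6.04 without (0.17). SIRT4, a mitochondrial sirtuin, passed the filter on the romidepsin array alone, with 3.77 with and 3.97 without (-0.20). SIRT2, a mostly cytoplasmic sirtuin, had 6.40 with and 6.51 without (-0.11). SIRT1 had 7.30 with and 7.27 without, SIRT3 differed by 0.00 and SIRT5 by 0.11. HDAC8, a class I member, had 7.21 with and 7.30 without (-0.09). The class II genes HDAC5, HDAC7 and HDAC10 each differed by -0.05, HDAC4 had 5.06 on both arrays, and HDAC11 differed by 0.11. A second probe set of HDAC4 had 4.01 with and 3.79 without (0.23). HDAC9 lay below the filter at 3.60 with and 3.30 without.

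Genes outside these symbols that encode partners in the same complexes also differed little. Of 96 listed partners 69 were named and 67 passed the filter. Their median was -0.03, with 25 higher, 41 lower and 1 equal, but 38 higher and 29 lower under quantile normalization, 35 and 32 under lowess centring, and 17 and 50 under median centring. The partners' median signals, 7.13 with sildenafil and 7.19 without, lay in the high range, where 2.89% of all genes reached the smaller threshold. Of the partners 4.48% reached it, against 12.7% of all genes past the filter. At this threshold 0 partners were higher and 3 lower, against 6.69% and 6.04% of all genes. These 3 had mean signals in the middle range, where 11.7% of all genes reached the threshold in either direction. The 3 were PCGF6, a subunit of a variant Polycomb complex, at 4.85 with sildenafil and 5.34 without (1.40-fold lower), BCL7C, a SWI/SNF subunit, at 4.94 with and 5.39 without (1.37-fold lower), and CXXC1, a CpG-binding subunit of a SETD1 complex, at 6.04 with and 6.38 without (1.27-fold lower). ACTL6A, an actin-related SWI/SNF subunit, had 7.55 with and 7.86 without (-0.31). The 8 NuRD partners lay between -0.13 and 0.18, and the 10 other methyltransferase genes between -0.11 and 0.08.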

How the data were processed

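Per the labels' protocols, cDNA was made from total RNA with a whole-transcript kit, tagged with biotin and read on an expression array. The authors deposited log2 signals for 53617 probe sets in 2 columns. The log base was taken from the value range (0.79 to 13.05), and how signals were summarised and normalized is not stated. Column medians were 3.92 with and 3.89 without sildenafil, so a change shared by most transcripts would not be seen. Samples were assigned by title, and the second drug named there in short form was read as sildenafil, the one other drug in the treatment protocol. The number of arrays limits the precision, and array batch and treatment cannot be told apart.

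In the platform annotation 16098 probe sets had a single gene symbol and 0 had several, and all 93 members matched the RefSeq gene table. The other probe sets are unnamed here. The probe set of highest mean signal stood for a gene with several. No test was possible, so counts at 1.25-fold (0.322 in log2) and 1.5-fold are given beside those of all named genes past the filter. The members, lists and thresholds were chosen with earlier results of these data known. In each class the 4 members with the largest differences, the 2 with the highest signal, 45 fixed genes (35 named) and members with several probe sets were described in full, and other members by their difference. The members KDM7A, KDM4A and KDM4C, genes beside members, and the printed sequences were chosen after values were seen. The call rule was tested on simulated data. Alternatives changed the filter, the handling of probe sets and the scaling between arrays (centring on medians, quantile normalization, or lowess centring at a span of 0.3). The software was statsmodels 0.14.6, pandas 2.3.3 and numpy 2.4.6 under Python 3.11.15.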

Additional observations from a re-analysis of the deposited data

How the results depend on the processing

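Under the 7 alternatives set out at the start, and with protein-coding members only (added after seeing the data), 0 members were higher by 0.322 or more and 0 were 1.5-fold apart in either direction. The count lower by 0.322 or more, 1 as reported, was 2 with no filter (KDM4B and TET1), 0 with the filter at a log2 signal of 5, 3 under median centring (KDM4B, KDM7A-DT and KDM8) and 2 under lowess centring (KDM4B and KDM7A-DT). The stricter filter removes KDM4B, whose brighter array was at 4.97. The members' median ran from -0.03 (median centring, all genes -0.04) to 0.05 (quantile normalization, all genes 0.02). Signs of small differences depended on the scaling. Median centring turned the sign of 12 members, quantile normalization of 8 and lowess centring of 4. None of these had a reported difference above 0.0501 in size. The bromodomain genes, with the class median farthest from zero, were the only class whose median kept its sign under all 3 scalings. The medians of the other 9 classes changed sign under at least 1 of them. All 434 values of single genes under alternatives stayed within 0.22, the SD of differences over all genes, of the reported value, and the largest move was 0.14. Settings that changed only the filter could not move such a value, and averaging probe sets could move only genes with several. The limit of 0.22 is also wider than the SD of the members' own differences (0.14), so it says little about small differences. Without a background measure per probe set, it is unknown which dim members were above background. No paired analysis was possible because each group holds 1 array.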
